A study of Mus musculus with 38 samples.

Results

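The Fbxw gene cluster of mouse chromosome 9 is a tandem array of F-box WD-repeat genes, and 8 of its members were followed here through the bulk RNA libraries and the sorted cortical nuclei of a Trim28 knockout study. The 8 members, Fbxw19, Fbxw16, Fbxw14, Fbxw15, Fbxw18, Fbxw20, Fbxw21 and Fbxw22, were selected from the 55298 genes of the count table by symbol and position, after Fbxw19 and Fbxw16 had been noticed for their high counts in Trim28-KO neural progenitor cells (NPCs). They all lay on the minus strand, between positions 109139447 and 109702700 (GRCm38), a span of 563 kb that also held or adjoined 7 further Fbxw genes. Because the NPC libraries drew attention to the cluster, its values in them are given as a description and without a test. The NPC tests are used only for marker genes and for counts of calls over all genes. The values of the other experiments did not enter the rule, although the members were chosen with earlier results of these data known.

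Trim28 was removed in several ways. NPCs were grown from the forebrain of Rosa26-Cas9 knock-in embryos at embryonic day 13.5 and received a lentiviral guide to Trim28 exon 3, 4 or 13 (6 Trim28-KO libraries) or a control guide (2 libraries), with transduced cells sorted after 10 days. Adult mice of 2 Cas9 lines received AAV guides and a nuclear reporter in the forebrain, with injection into the striatum described for Rosa26 Cas9 mice. In Cas9 GFP knock-in mice, which carry Cas9 in all cells, the reporter was under the neuronal synapsin promoter. Stop-Cas9-GFP knock-in mice also received AAV Cre under that promoter, and Cre switched on both Cas9 and the reporter. Each line had 4 Trim28-KO libraries (guides 3, 4, 13 and their mixture) and 1 control library, and the reporter-positive nuclei were sorted 2 months after injection. Trim28 floxed mice (+/- and +/+, with +/+ as the Trim28-KO) received AAV Cre under the same promoter in the forebrain. GFP-positive nuclei were sorted, also after 2 months (4 libraries labelled KO and 4 labelled control). In Emx1-Cre (+/-) mice the deletion takes place in cortical progenitors. Animals with both Trim28 alleles excised (Trim28-fl +/+, 3 libraries) were compared with animals with 1 allele excised (Trim28-fl +/-, 3 libraries). By this description the controls lacked an allele too. A figure legend of the study instead calls the controls of the cortex contrast Cre-negative. Bulk RNA came from whole cortex at 3 months of age, and single nuclei were sequenced from 4 of the same 6 animals (KO animals 60 and 73, control animals 64 and 65). The bulk libraries held 8790346 to 25345083 reads on genes. All levels in CPM (a library's counts scaled to a common total) are relative to the normalized library size, and "not detected" in a library refers to a floor of 3 reads.

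F-box proteins are the interchangeable substrate receptors of SCF ubiquitin ligases: the F-box binds Skp1, which joins the Cul1 scaffold, and the WD repeats hold the protein to be ubiquitinated. Among the genes of this array, Fbxw15 is known as a gene of the oocyte. Trim28 is the co-repressor that KRAB zinc-finger proteins bring to their target sequences, many of them in transposable elements (TEs), where it works with the histone methyltransferase Setdb1 to deposit H3K9me3.

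The windows before the RefSeq starts of the members are shown first, since the members that gained reads and those that did not share much of this sequence. RefSeq promoter entries (GRCm38.p6) were found for 7 of the 8 members, all but Fbxw22. The 250 bases upstream of the start are printed 5′ to 3′ on the minus strand for Fbxw19 (chr9:109495855-109496104) and Fbxw16 (chr9:109449141-109449390), which gained reads in Trim28-KO cells, for Fbxw15 (chr9:109568263-109568512), which had reads in control cortex, and for Fbxw14 (chr9:109287677-109287926), which had none in any bulk library. Capitals mark the longest run of bases shared by Fbxw19 and Fbxw16, of 29 bases.
Fbxw19: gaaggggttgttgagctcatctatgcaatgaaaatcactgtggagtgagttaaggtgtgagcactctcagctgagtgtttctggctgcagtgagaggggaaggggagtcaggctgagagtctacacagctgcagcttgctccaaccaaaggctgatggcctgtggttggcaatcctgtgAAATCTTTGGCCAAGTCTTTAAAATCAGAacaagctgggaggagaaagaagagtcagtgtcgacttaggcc
Fbxw16: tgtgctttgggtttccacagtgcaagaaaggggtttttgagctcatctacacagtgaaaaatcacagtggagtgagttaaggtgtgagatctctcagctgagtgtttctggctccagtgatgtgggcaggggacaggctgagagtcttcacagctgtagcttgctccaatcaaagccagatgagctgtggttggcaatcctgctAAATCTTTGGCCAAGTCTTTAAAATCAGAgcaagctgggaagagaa
Fbxw15: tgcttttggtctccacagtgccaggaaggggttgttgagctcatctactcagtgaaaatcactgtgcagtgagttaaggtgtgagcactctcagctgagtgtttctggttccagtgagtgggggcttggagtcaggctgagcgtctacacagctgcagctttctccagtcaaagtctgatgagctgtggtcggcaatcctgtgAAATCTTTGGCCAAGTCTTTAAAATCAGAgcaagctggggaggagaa
Fbxw14: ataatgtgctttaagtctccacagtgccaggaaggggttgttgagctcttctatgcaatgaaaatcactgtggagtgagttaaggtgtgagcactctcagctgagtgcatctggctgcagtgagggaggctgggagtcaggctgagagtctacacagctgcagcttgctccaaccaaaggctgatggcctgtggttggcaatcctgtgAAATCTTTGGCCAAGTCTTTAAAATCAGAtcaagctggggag
The run began 71 bases before the RefSeq start of Fbxw19 and 46 bases before that of Fbxw16. The gene model of the count table starts at 109495875 for Fbxw19, inside the printed window, so the distance to that start is shorter. It stood in 5 of the 32851 promoter windows in the table (0.0152%, both strands searched), and all 5 belonged to this array: Fbxw14, Fbxw15, Fbxw16, Fbxw19 and Fbxw28. Of those genes, Fbxw14 and Fbxw28 had 0 reads in all 32 bulk libraries. The windows of Fbxw18, Fbxw20 and Fbxw21 did not hold these letters. Over the whole window, identity to Fbxw19 was 72.2% for Fbxw16, 75.5% for Fbxw14, 74.5% for Fbxw15, 63.9% for Fbxw18, 60.7% for Fbxw20 and 73.1% for Fbxw21.

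The transcripts were also alike, which bears on how reads could be assigned. The longest annotated transcripts of the 15 Fbxw genes of the stretch were 53.0% to 88.9% identical in the 105 pairs, and Fbxw16 was 86.8% identical to Fbxw19. No window of 150 bases, the read length, within an exon of Fbxw19, Fbxw16 or Fbxw15 occurred a second time in the stretch. Such repeated windows were found in Fbxw14 (18.7% of windows) and Fbxw28 (21.7%) only. Reads of these 2 genes could therefore be split between them or be lost, and their counts are uncertain.

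Trim28 itself was first examined in each experiment, as a check of the labels. In NPCs it was at 36.8 to 73.6 CPM in the 6 Trim28-KO libraries and at 157 and 204 CPM in the controls. In the Emx1-Cre cortex, Trim28 was at 6.08, 8.53 and 8.88 CPM in the Trim28-KO animals with the controls at 19, 20.9 and 21.4 CPM (log2 fold change -1.39, adjusted p = 0.000378, edgeR). Both sets of libraries were separate without overlap. In the Cas9-GFP nuclei it was at 93.8 to 105 CPM against 143 CPM in the control, and in the Stop-Cas9-GFP nuclei at 88.5 to 127 CPM against 105 CPM, and neither difference passed the test. Guides can leave an edited transcript in place, so the RNA level does not measure loss of the protein. In the floxed mice the level went against the labels: the 4 libraries labelled Trim28-KO held 131 to 146 CPM and the 4 labelled control held 25.6 to 31.6 CPM (log2 fold change 2.26, adjusted p = 2.74e-06, edgeR). No direction is drawn from the flox labels here.

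In NPCs, Fbxw19 and Fbxw16 were detected in every Trim28-KO library and in neither control. The sample numbers form 2 series, each with the guides to exons 3, 4 and 13 and a control. Fbxw19 counted 285, 115 and 149 reads with guides 3, 4 and 13 of the first series, 211, 179 and 94 with those of the second, and 0 in both controls. The mean was 10.3 ± 2.75 CPM (SD, n = 6). The libraries with guide 3 of both series had the highest values (15.2 and 11.2 CPM), and the other libraries lay between 7.5 and 10.3 CPM. Fbxw16 counted 192, 48, 49, 105, 76 and 54 reads in the same order and 0 in both controls, at 5.23 ± 2.70 CPM (SD, n = 6). The same 2 libraries were highest for Fbxw16 (10.3 and 5.59 CPM). Per kilobase of exon the means were alike, at 2.96 ± 0.787 CPM per kb for Fbxw19 and 2.90 ± 1.5 CPM per kb for Fbxw16 (RNA level scaled to annotated exon length). Of the other members, Fbxw15 had 1 read in each of 2 Trim28-KO libraries, Fbxw22 had 1 read with guide 3 of the first series, and Fbxw14, Fbxw18, Fbxw20 and Fbxw21 had none. Of all 8 members, 2 had reads in every Trim28-KO library and none in a control, which held for 0.0972% of the 16469 genes tested in NPCs. The choice of the members already used this contrast.

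The cortex of Emx1-Cre mice gave the same 2 genes in a contrast that did not enter the rule. Fbxw19 counted 131, 92 and 104 reads in the Trim28-KO animals 60, 73 and 76 and 0 reads in each of the 3 controls. At 6.81 ± 1.83 CPM (SD, n = 3), it was at least 50.4-fold higher than the floor of 3 reads per control library (adjusted p = 1.34e-05, edgeR quasi-likelihood test, Benjamini-Hochberg). Fbxw16 counted 59, 48 and 32 reads in the Trim28-KO animals and 0 in each control. It stood at 2.79 ± 0.488 CPM (SD, n = 3), at least 20.6-fold higher (adjusted p = 5.03e-05, edgeR). For both genes every Trim28-KO animal was above every control. Per kilobase of exon, Fbxw19 and Fbxw16 had RNA levels of 1.95 ± 0.524 and 1.55 ± 0.271 CPM per kb. Of all 8 members, 2 were called higher, Fbxw15 was tested and not called, and 5 were under the filter on low counts. Among all 16271 genes tested, 0.86% were called higher. Fbxw19 and Fbxw16 passed that filter through their Trim28-KO libraries alone, so their p-values and their number among the members support nothing further. In RNA of whole cortex, a change in the number of cells of a type and a change of RNA per cell cannot be told apart.

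Fbxw15 did not follow its neighbours. It was detected in the cortex of the controls, with 25, 16 and 21 reads in animals 64, 65 and 77, and in the Trim28-KO animals with 13, 8 and 10 reads in animals 60, 73 and 76. The Trim28-KO animals lay at 0.414 to 0.792 CPM, below the controls at 0.870 to 0.933 CPM, but the difference did not pass the test (log2 fold change -0.52 ± 0.33 SE, adjusted p = 0.783, edgeR). The remaining members had at most 1 read in these 6 libraries, a read of Fbxw22 in animal 73.

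**Figure D1:**
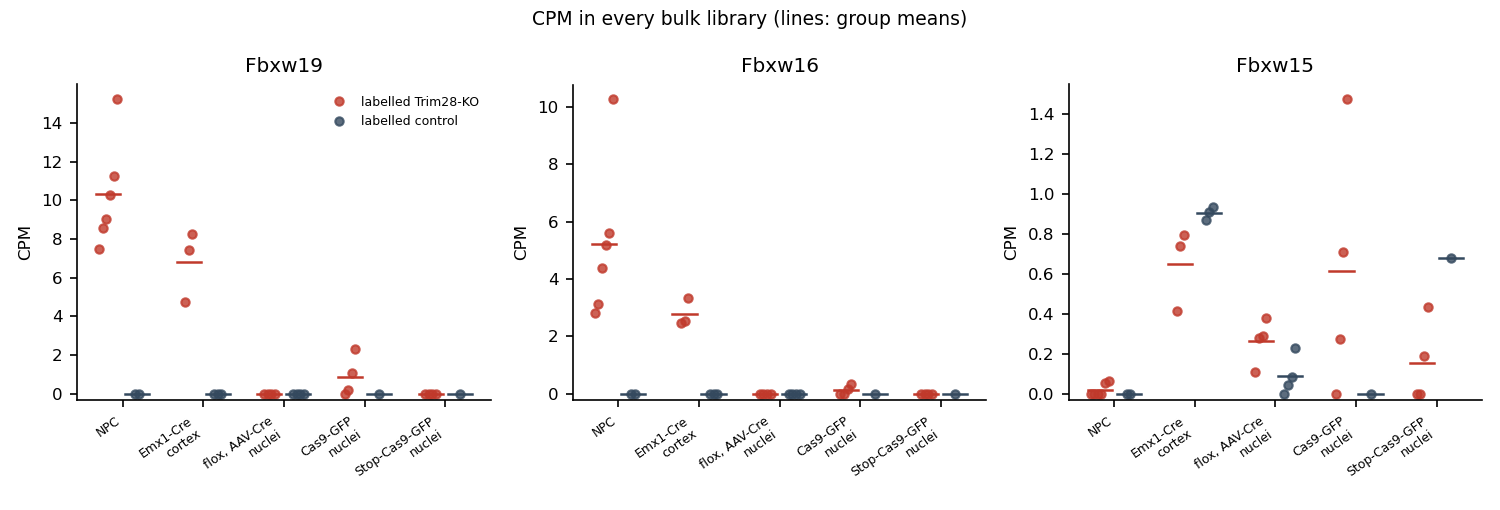
CPM of Fbxw19, Fbxw16 and Fbxw15 (vertical axes, linear, a scale for each gene) in every bulk library, by experiment and label, with a point for each library and a line at the group mean. Fbxw19 and Fbxw16 were at 0 in all control libraries and in all 8 flox libraries, whereas Fbxw15 was present in the control cortex at 0.870 to 0.933 CPM.

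The sorted adult nuclei differed from these 2 experiments. In the 8 flox libraries Fbxw19 and Fbxw16 had 0 reads each, whichever label is taken, so the mismatch of the labels does not enter this value. In the 5 Stop-Cas9-GFP libraries they also had 0 reads each. In the Cas9-GFP libraries, Fbxw19 had 27 reads with guide 3, 14 with the mixture of guides, 2 with guide 13, 0 with guide 4 and 0 in the control. Fbxw16 had 4 reads with guide 3 and 2 with guide 13. The mean of the 4 Trim28-KO libraries was at least 3.04-fold above the floor of the control, and Fbxw19 did not pass the test (adjusted p = 0.661, edgeR). The library with guide 3 (2.34 CPM) set most of this bound, and without it the mean of the other 3 was 1.41 times the floor. Each guide and the control are a single library, so guides cannot be compared and the spread comes from the 4 Trim28-KO libraries. The same libraries had 17 reads of Fbxw15 with guide 3, 8 with guide 4, 3 with guide 13, and 0 in the mixture and the control (adjusted p = 0.693, edgeR). In the flox nuclei Fbxw15 had 5, 2, 6 and 8 reads in the libraries labelled Trim28-KO and 2, 0, 1 and 4 in those labelled control, and in the Stop-Cas9-GFP nuclei 0, 0, 5 and 2 reads against 6 in the control. In both it was under the filter on low counts. In none of the 19004 genes tested in the Cas9-GFP nuclei was a call made (0%; 1560 genes had an unadjusted p under 0.05), and none of the 18777 in the Stop-Cas9-GFP nuclei (0%; 459 genes). The oligodendrocyte markers Mbp, Mog, Mag, Mobp and Cnp summed to 243 CPM in the Cas9-GFP library with guide 3 and to 181 to 215 CPM in the other 4 libraries of that line. The astrocyte markers summed to 283 CPM in that library and to 188 to 204 CPM in the other 4. Excitatory markers summed to 816 CPM there and to 609 to 902 CPM in the others, with Slc17a7, the vesicular glutamate transporter, at a mean of 55.7 CPM in the Trim28-KO and 13.9 CPM in the control. In the Stop-Cas9-GFP libraries, without Fbxw19 reads, astrocyte sums were 308, 208, 282 and 272 CPM with guides 13, 3, the mixture and guide 4. The control there was at 207 CPM. Slc17a7 was at a mean of 42.9 CPM in these Trim28-KO libraries, also above their control. Their oligodendrocyte sums were lower, at 128 to 175 CPM in the Trim28-KO and 181 CPM in the control. In the flox libraries the oligodendrocyte sum was 143 to 231 CPM and in the Emx1-Cre cortex 963 to 1338 CPM. The flox astrocyte sum was 36.5 to 89.6 CPM. The part of these cell types in the Fbxw19 counts was not tested.

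For Fbxw19 and Fbxw16, the edgeR interaction term of the Emx1-Cre and flox effects was fitted and called neither gene. No result is read from it, because all 8 flox libraries were at 0 and its standard error was not usable. The levels of these genes in the Emx1-Cre Trim28-KO cortex stand beside 0 reads in the flox nuclei as a description. They were 4.76 to 8.24 CPM for Fbxw19 and 2.48 to 3.35 CPM for Fbxw16. For Fbxw15 the term was -2.09 ± 0.81 SE as labelled and was not called (adjusted p = 0.528, edgeR, with calls in 0.315% of the 19062 genes tested). Its sign and size follow from the flox labels, so no direction is read from it. Whole cortex and sorted neuronal nuclei, the brain region (cortex and injected forebrain), the method of deletion and the age at deletion differed along with these groups. They cannot be told apart.

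Seen along the array, Fbxw16 and Fbxw19, the members with reads in every Trim28-KO library of the NPCs and the Emx1-Cre cortex and in none of their controls, are neighbours. On their 3′ side Fbxw22 had 1 read in all NPC libraries and 1 in all Emx1-Cre libraries. On the 5′ side of Fbxw19, the pseudogene Fbxw23 had 0 reads in NPCs and 6 and 5 reads over the Emx1-Cre Trim28-KO and control libraries. Fbxw20, Fbxw14 and Fbxw21 had no read in any of the 32 libraries. Fbxw18 had reads in flox libraries only, 3 over those labelled KO and 4 over those labelled control. Among the 7 non-member Fbxw genes, Fbxw27 had the most reads, 37 and 56 in the flox libraries labelled KO and control, and its difference there did not pass the test (log2 fold change -0.55 ± 0.49 SE, adjusted p = 0.972, edgeR).

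**Figure D2:**
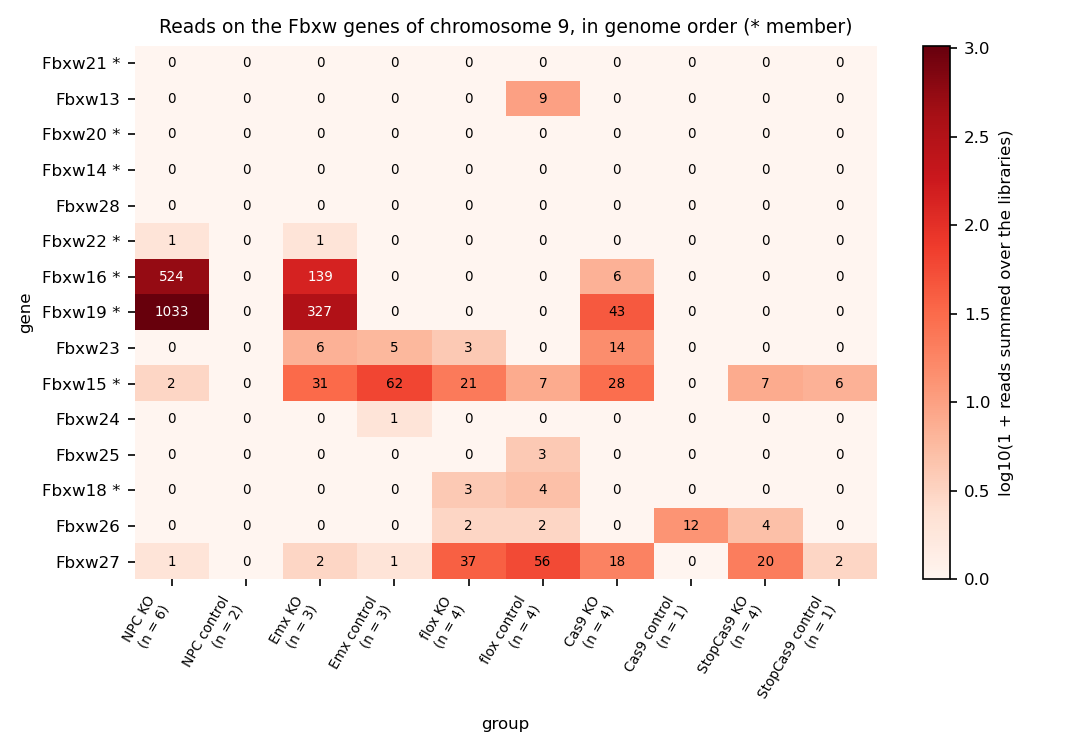
Reads of the 15 Fbxw genes of the stretch (rows, in genome order, members marked with an asterisk) summed over the libraries of each group (columns), with the sums printed and the color on a log10(1 + reads) scale. The sums of 1033 and 524 reads in Trim28-KO NPCs and 327 and 139 in Emx1-Cre Trim28-KO cortex stand on Fbxw19 and Fbxw16, and Fbxw15 holds 31 and 62 reads in Emx1-Cre Trim28-KO and control cortex.

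Of the 8 other annotated loci between the members, 3 overlap a member. Gm42494, a gene model on the plus strand inside Fbxw16, counted 13, 17 and 13 reads in the Emx1-Cre Trim28-KO animals and 0 in the controls (at least 6.53-fold higher, adjusted p = 0.00169, edgeR). It passed the filter through the Trim28-KO libraries alone and was named after its values were seen, so its p supports nothing further. Gm42493, annotated as antisense at the start of Fbxw16, counted 8, 5 and 10 reads against 0 and was under the filter on low counts. Gm42756, antisense beside the 3′ end of Fbxw15, was at 1.6 to 2.62 CPM in the Trim28-KO animals and 1.63 to 2.14 CPM in the controls (log2 fold change -0.02 ± 0.24 SE, adjusted p = 0.999, edgeR), and these ranges overlap, whereas the 3 Trim28-KO animals lay below the 3 controls for Fbxw15 itself (0.414 to 0.792 against 0.87 to 0.933 CPM), which was not called. Of the loci that overlap no member, Gm43089 had 4 reads over the Emx1-Cre Trim28-KO and 1 over the control animals, and Gm42755 had 1 in each. For the models on the other strand, whether the counts hold reads of the member they overlap was not tested.

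None of the tested genes that flank the array was called in the experiments other than the NPCs. Among all genes tested, 1.33% were called in the Emx1-Cre cortex, 0.0409% in the flox nuclei and 0% in both Cas9 lines. The absence of a call among so few flanking genes therefore says little about them. The 4 nearest protein-coding genes on either side were Atrip, Tma7, Ccdc51 and Plxnb1 on one side and Spink8, Nme6, Camp and Cdc25a on the other, and 7 of the 8 were tested in each of the Emx1-Cre, flox, Cas9-GFP and Stop-Cas9-GFP experiments. In the Emx1-Cre cortex the tested genes had log2 fold changes from -0.28 (Cdc25a, a cell cycle phosphatase) to 0.52 (Spink8, a protease inhibitor), with a lowest adjusted p of 0.781 (edgeR). The lowest adjusted p was 0.971 in the flox, 0.666 in the Cas9-GFP and 1 in the Stop-Cas9-GFP nuclei.

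The TE copies around the members extended the picture beyond the exons. TE reads were counted on single annotated copies, and 913 copies lay within 20 kb of a member, 863 of them without overlap of an exon. In the Emx1-Cre cortex 718 of these copies had no read, 122 had reads in Trim28-KO animals only and 23 in controls only. The filter on low counts passed 5 copies, of which 4 were called higher in the Trim28-KO, and 2.67% of the 14556 copies tested in the genome were. These 4 had no read in a control and passed the filter through the Trim28-KO libraries alone. Their p-values and their number among the copies tested therefore support nothing further. IAP1-MM_I-int_dup253, the internal part of an IAP endogenous retrovirus (chr9:109510693-109514468, minus strand), counted 33, 34 and 37 reads in Trim28-KO animals 60, 73 and 76 and 0 in the controls. At 2.19 ± 0.647 CPM (SD, n = 3) it was at least 16.2-fold higher (adjusted p = 5.67e-10, edgeR). L1Md_F2_dup32269, a LINE copy (chr9:109505043-109506600), counted 20, 22 and 20 reads against 0 (at least 9.52-fold higher, adjusted p = 4.02e-08, edgeR). RMER17D2_dup795 (chr9:109501983-109502389) and RMER17D2_dup796 (chr9:109502572-109502956), 2 LTR fragments, were at least 7.57-fold and 5.07-fold higher (adjusted p = 4.86e-07 and 9.66e-06, edgeR). All 4 lay upstream of Fbxw19, more than 5 kb from its start. The other copy tested, B1_Mur1_dup20442 beside Gm42756, had 40 and 44 reads over the Trim28-KO and control libraries and was not called (adjusted p = 0.931, edgeR).

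In NPCs, where the copies are given without a test, the same copies had reads. IAP1-MM_I-int_dup253 counted 40, 20 and 40 reads with guides 3, 4 and 13 of the first series, 22, 27 and 10 with those of the second, and 0 in both controls. L1Md_F2_dup32269 counted 48, 33, 52, 43, 28 and 13 reads in that order and 0 in both controls. Neither copy had a read in a control, and each had reads in all 6 Trim28-KO libraries. A further copy with a high mean was MuRRS4-int_dup465 (chr9:109460522-109464812) between Fbxw16 and Fbxw19, at 1.48 ± 0.515 CPM (SD, n = 6) with 0 reads in the controls. Reads in every Trim28-KO library and none in a control were found for 13 of the 15 copies near the members that passed the filter, beside 0.456% of the 35091 copies tested in NPCs, again in the contrast used for the choice. In the Cas9-GFP nuclei 3 copies passed the filter and none was called (0.163% of all 105426 copies were called higher), in the Stop-Cas9-GFP nuclei 1 passed and was not called (0.0114% of 113560), and in the flox nuclei none passed.

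The reads formed 1 stretch that ran through both genes and ended sharply upstream of Fbxw19. The copies with at least 3 reads over the Trim28-KO libraries and none in controls ran from position 109432281 to 109514848 in NPCs, a span of 82.6 kb, and from 109436353 to 109514848 in the Emx1-Cre cortex, a span of 78.5 kb. Summed over the 34 copies between the start of Fbxw19 and the far end of the IAP element, the Trim28-KO NPC libraries held 144 to 376 reads each and the Emx1-Cre Trim28-KO animals 155 to 225, with 0 reads in every control of both experiments. Over the 78 copies from the IAP element on to Fbxw15, the NPC libraries held 0 to 2 reads each. The Emx1-Cre animals held 38 to 45 reads there with the Trim28-KO and 30 to 78 in controls, near Gm42756 and Fbxw15. Between Fbxw21 and the end of Fbxw16, 567 copies together held 0 to 5 reads per NPC library and 0 to 3 per Emx1-Cre animal. The borders of these segments were set after the values were seen, so they carry no test.

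**Figure D3:**
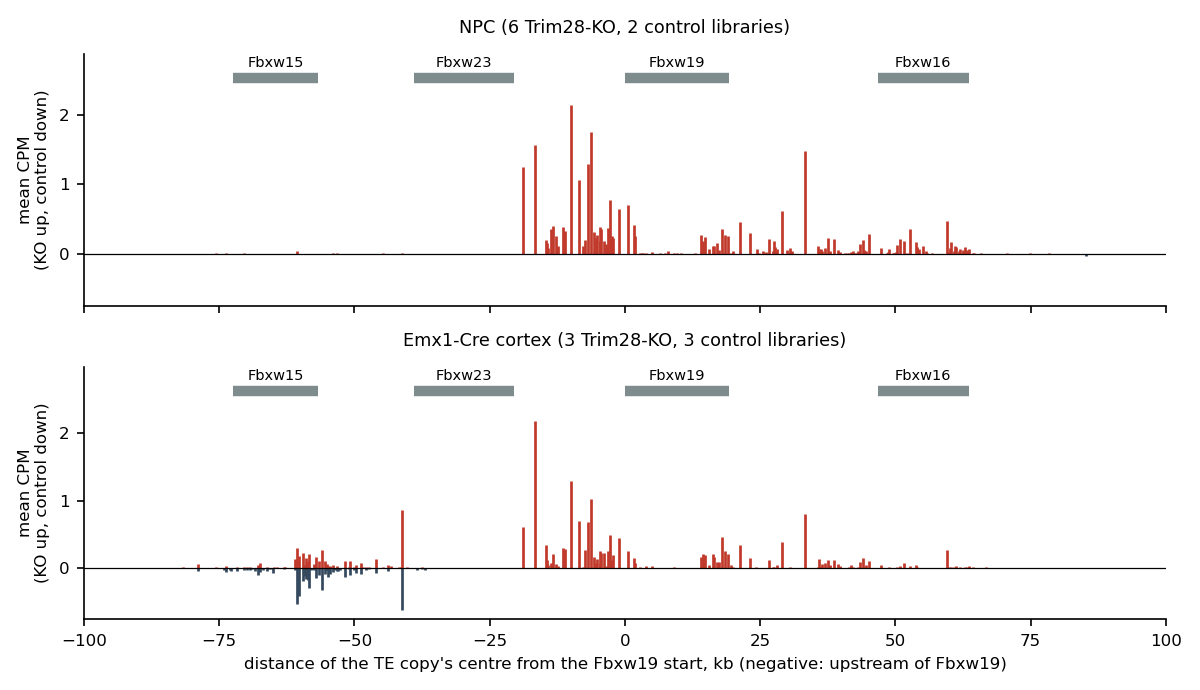
Mean CPM of each TE copy (vertical axis, Trim28-KO upward in red and control downward in blue, linear) against the distance of its center from the start of Fbxw19 in kb (horizontal axis, upstream negative), for NPCs and for Emx1-Cre cortex, with the extent of 4 Fbxw genes as grey bars. Trim28-KO reads fill the stretch from Fbxw16 to the IAP element 14.6 to 19.3 kb upstream of Fbxw19 and stop there, and in the Emx1-Cre cortex control reads stand mostly beside Fbxw15.

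The element at this border was annotated as 4 pieces on the minus strand, as are the Fbxw genes. It spanned 4727 bases (chr9:109510414-109515140), with an LTR at either end. The LTR on the 3′ side, IAP1-MM_LTR_dup222, had 19 reads over the 6 Trim28-KO NPC libraries and 17 over the 3 Emx1-Cre Trim28-KO animals. The LTR on the 5′ side, IAP1-MM_LTR_dup223 (chr9:109514849-109515140), had 0 reads in all libraries, so the counted reads began at its inner edge. Whether reads from this LTR could be mapped uniquely was not tested, so its 0 does not place the start of a transcript. The 5′ LTR is printed 5′ to 3′ on the minus strand from GRCm38.p6, with its TG and CA ends, the usual termini of an LTR, in capitals.
IAP1-MM_LTR_dup223: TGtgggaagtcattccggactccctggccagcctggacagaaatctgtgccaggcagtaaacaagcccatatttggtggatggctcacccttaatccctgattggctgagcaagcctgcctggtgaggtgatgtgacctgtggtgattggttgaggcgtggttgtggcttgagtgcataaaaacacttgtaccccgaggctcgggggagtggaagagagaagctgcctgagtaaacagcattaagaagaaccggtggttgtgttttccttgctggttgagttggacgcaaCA
The pair of LTRs was 88.4% identical over 292 aligned columns, with 21 mismatches and 13 gap columns.

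Whether these reads came from the strand of the Fbxw genes cannot be read from the counts. As a check, copies lying wholly in exons of protein-coding genes were split by strand: 16756 copies antisense to their exon carried 0.486 to 0.769 of the read density of 15124 copies in sense, over the 32 libraries. The deposited TE counts therefore mixed the strands, and reads on copies of the plus strand, such as RMER17D2_dup795, cannot be told from transcripts of the minus strand. The strand of the gene counts was not tested.

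The cell classes with these reads in the Emx1-Cre cortex were sought in single nuclei of 4 of the same animals, so these nuclei are not further animals. After filters, 3609 and 3590 nuclei were kept from Trim28-KO animals 60 and 73 and 3407 and 3065 from control animals 64 and 65, with a median of 8088 to 8840 UMIs (unique molecules) per nucleus. Clusters were formed without the members and Trim28 and were called oligodendrocyte-like, astrocyte-like and so on from marker genes. Emx1-Cre acts in the dorsal progenitors that give rise to cortical excitatory neurons, astrocytes and part of the oligodendrocytes, while cortical inhibitory neurons and microglia arise elsewhere. Of the cell barcodes, 0 to 20 were shared by a pair of libraries.

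Most Fbxw19 RNA was in oligodendrocyte-like nuclei. In Trim28-KO animals 60 and 73 these nuclei had 463 and 244 UMIs of Fbxw19, 890 and 562 CPM of their summed RNA, and the controls had 0 UMIs in 569 and 343 nuclei. A UMI was found in 142 of 233 nuclei of animal 60 (60.9%, 95% exact binomial interval 54.4 to 67.3) and in 78 of 163 of animal 73 (47.9%, 40.0 to 55.8), while the controls allow a share of up to 0.527% and 0.875%. The mean level was at least 269-fold higher than the floor of the controls (adjusted p = 6.15e-13, edgeR on counts summed per animal, 2 against 2). Fbxw16 had 259 and 91 UMIs in the same nuclei, 498 and 210 CPM, and 0 in the controls (at least 131-fold higher, adjusted p = 2.99e-10, edgeR). It was found in 54.5% (47.9 to 61.0) and 32.5% (25.4 to 40.3) of the nuclei. Among all 8041 genes tested in these nuclei, 1.85% were called higher. Here and in the astrocyte-like nuclei both genes had no UMI in a control and entered the test through the Trim28-KO animals alone. Their p-values in these 2 classes therefore support nothing further. The oligodendrocyte-like nuclei held 85.0% and 76.3% of all Fbxw19 UMIs of animals 60 and 73, although they were 6.46% and 4.54% of the nuclei. In control animals 64 and 65 they were 16.7% and 11.2% of the nuclei.

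Astrocyte-like nuclei came next. They had 38 and 58 UMIs of Fbxw19 in Trim28-KO animals 60 and 73 (31.0 and 49.0 CPM) and none in the 317 and 215 control nuclei, at least 13.3-fold higher (adjusted p = 5.44e-04, edgeR). The share with a UMI was 7.67% (5.07 to 11) and 13.1% (9.54 to 17.3). Fbxw16 was at 27.7 and 26.2 CPM in the Trim28-KO animals with 0 UMIs in the controls, at least 8.96-fold higher (adjusted p = 8.81e-04, edgeR, beside 0.923% of the 10297 genes tested). Astrocyte-like nuclei with Fbxw19 carried 520.1 and 278 CPM of the oligodendrocyte markers in animals 60 and 73, the others 75.9 and 38.0 CPM. Among astrocyte-like nuclei without a single UMI of these markers, 21 of 292 (7.19%) and 33 of 267 (12.4%) had Fbxw19. A nucleus without these UMIs may still hold RNA of oligodendrocytes, and its part in these values was not tested.

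Excitatory-like nuclei, the largest class and the deepest, were close to 0. Fbxw19 had 30 UMIs in 2253 nuclei of animal 60 and 18 in 2344 nuclei of animal 73 (1.14 and 0.680 CPM), against 0 in 1737 and 1 in 1844 control nuclei. The gene entered the test through the Trim28-KO animals alone here as well, so its p supports nothing further. The difference passed the test (adjusted p = 0.0223, edgeR, beside 3.57% of the 16257 genes tested) but not without animal 60 (adjusted p = 0.0759), 64 (0.0741) or 65 (0.111). Over both animals of each genotype, 48 UMIs stood against 1, a ratio of 41.0 per UMI sequenced that rests on that 1 control UMI. The UMIs were clumped. In animal 60, 14 of the 30 lay in 4 nuclei, and in animal 73, 10 of the 18 lay in 2 nuclei. UMIs are therefore not independent counts, and no interval is given for the ratio. The fitted log2 fold change was 5.03 in all 4 animals and 4.61, 4.17 and 7.51 in those 3 fits, and with 1 or 0 control UMIs it depends on the prior count. The share with a UMI was 0.71% (0.406 to 1.15) and 0.427% (0.205 to 0.783), at a median of 10909 and 10398.5 UMIs. Inhibitory-like nuclei, outside the Emx1 lineage, gave 0.429% (0.0520 to 1.54) and 0% (up to 0.609%) in the same animals, at a median of 7968 and 8043 UMIs. The intervals overlap, which does not show that the shares are equal, and the part of RNA from other nuclei in the excitatory-like UMIs was not tested. Excitatory-like nuclei with Fbxw19 carried 712 and 501 CPM of oligodendrocyte markers and the others 101 and 89.6 CPM. In nuclei without any UMI of these markers, 3 and 2 UMIs of Fbxw19 were left in 1007 and 1086 nuclei, and the gene no longer passed the filter.

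The other classes had few or no UMIs. OPC-like nuclei, the precursors of oligodendrocytes by their markers, had 0 UMIs of Fbxw19 in 116 and 120 nuclei, which allows shares of nuclei with a UMI of up to 2.59% and 2.50%, and 0 of Fbxw16. This limits detection and not expression at a low level. Microglia-like nuclei had 12 UMIs in 3 nuclei of animal 60 and 0 in animal 73, and those 3 nuclei carried 5356 CPM of oligodendrocyte markers against 75.603 CPM in the others. Vascular/meningeal-like nuclei had none, with 34 nuclei in each Trim28-KO animal (up to 8.82%). Shares rise with depth, so each nucleus was also thinned to 1000 UMIs: Fbxw19 was then in 47.7% and 34.5% of oligodendrocyte-like, 2.61% and 4.58% of astrocyte-like and 0.0942% and 0.0702% of excitatory-like nuclei in animals 60 and 73. Oligodendrocyte-like nuclei came before astrocyte-like and these before excitatory-like nuclei in both animals, in CPM and after thinning. Microglia-like nuclei of animal 60 were at 41.7 CPM, above its astrocyte-like nuclei, but at 1.35% after thinning, below them. Classes of the same animals are compared here as a description.

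**Figure D4:**
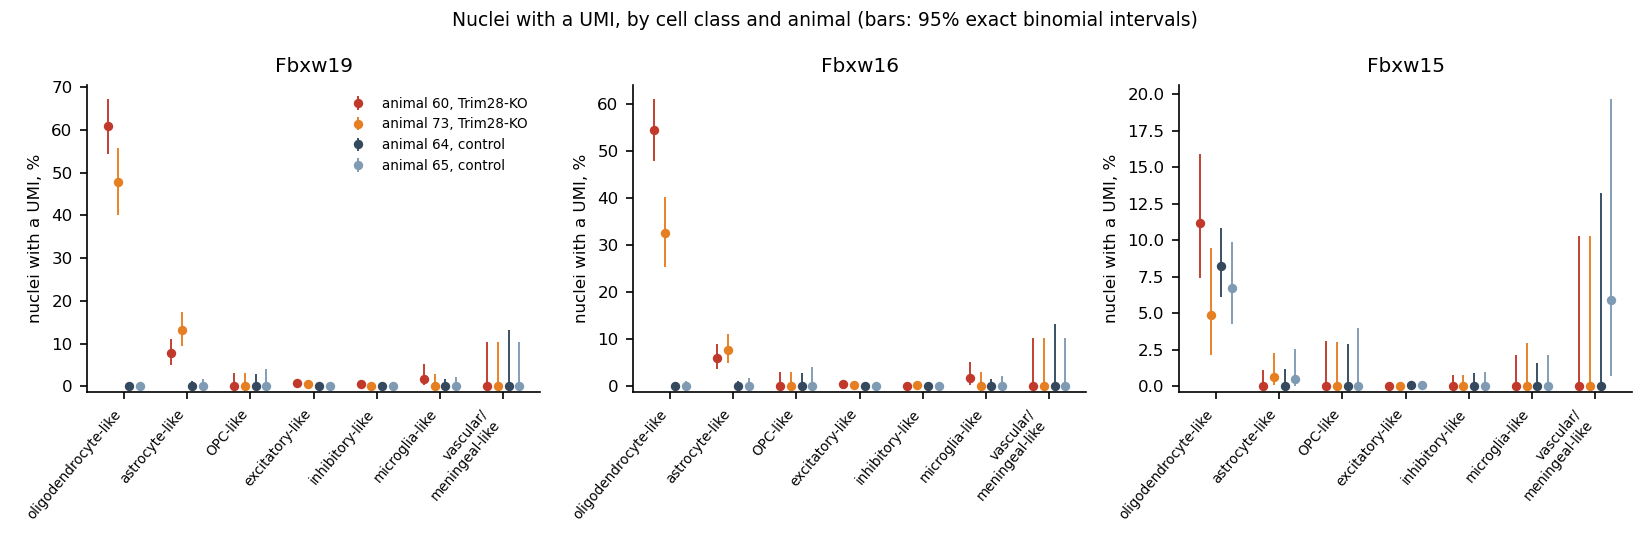
Share of nuclei with at least 1 UMI of Fbxw19, Fbxw16 and Fbxw15 (vertical axes in percent, a scale for each gene) in 7 cell classes for each of the 4 animals, with 95% exact binomial intervals. Trim28-KO animals 60 and 73 stand at 60.9% and 47.9% for Fbxw19 in oligodendrocyte-like nuclei with the controls at 0%, whereas Fbxw15 is present in oligodendrocyte-like nuclei of all 4 animals.

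The UMIs of Fbxw19 per oligodendrocyte-like nucleus of the Trim28-KO varied, with a ratio of variance to mean of 2.89 and 2.96 in animals 60 and 73, where counting error at 1 common level would give 1. What depth and counting add to this spread was not tested further. In animal 60, 91 of 233 nuclei had no Fbxw19 UMI, and 79 nuclei with 3 or more held 80.6% of all UMIs. In animal 73, 85 of 163 had none, and 44 nuclei with 3 or more held 80.7%. Depth was similar in the nuclei with and without Fbxw19, at a median of 2040 and 2080 UMIs in animal 60 and 2325.5 and 2545 in animal 73. The oligodendrocyte markers were at 8465 and 8611 CPM in the nuclei with Fbxw19 and at 9501 and 10446 CPM in those without. Fbxw16 was found in the same nuclei: in animals 60 and 73, 89.8% and 83.0% of oligodendrocyte-like nuclei with Fbxw16 also had Fbxw19, against 26.4% and 30.9% of those without Fbxw16. In astrocyte-like nuclei 10 of 20 and 15 of 24 nuclei with Fbxw16 had Fbxw19, against 5.02% and 8.97% of those without. Both genes were sequenced in the same libraries, and these shares are given as a description.

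**Figure D5:**
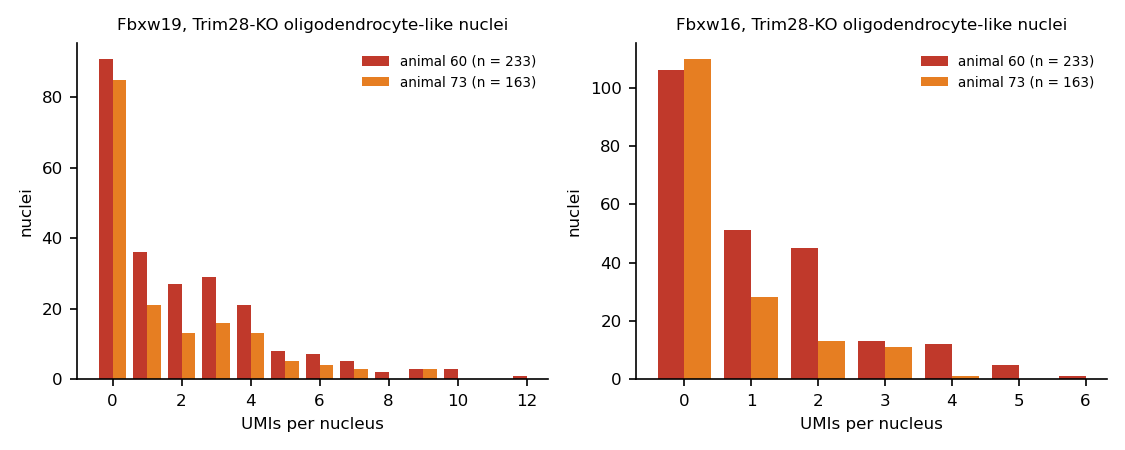
Number of oligodendrocyte-like nuclei (vertical axis) by UMIs of Fbxw19 or Fbxw16 per nucleus (horizontal axis) in Trim28-KO animals 60 and 73. For Fbxw19, 91 and 85 nuclei had none and the highest values were 12 and 9 UMIs.

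Fbxw15 was also found mainly in oligodendrocyte-like nuclei, in both genotypes. It was at 51.9 and 23.0 CPM in oligodendrocyte-like nuclei of Trim28-KO animals 60 and 73 and at 35.1 and 27.0 CPM in those of control animals 64 and 65 (log2 fold change 0.25 ± 0.38 SE, adjusted p = 0.876, edgeR). In excitatory-like nuclei it had 1 UMI in each of the 4 animals. Gm42756 beside it was at 150, 111, 97.1 and 106 CPM in oligodendrocyte-like nuclei of animals 60, 73, 64 and 65 (log2 fold change 0.35 ± 0.23 SE, adjusted p = 0.596, edgeR). Gm42493 at the start of Fbxw16 had 17 and 8 UMIs in oligodendrocyte-like nuclei of the Trim28-KO animals and 0 in those of the controls (at least 9.46-fold higher, adjusted p = 0.000243, edgeR). It too entered the test through the Trim28-KO animals alone, so its p supports nothing further. Fbxw20 had no UMI in excitatory-like, astrocyte-like or oligodendrocyte-like nuclei, and Fbxw14, Fbxw18, Fbxw21 and Fbxw22 had at most 16 UMIs per animal over all classes, mostly in excitatory-like nuclei and in both genotypes. Trim28 RNA passed the filter in 2 classes and the test in neither. In excitatory-like nuclei it was at 6.36 and 6.72 CPM in the Trim28-KO and 8.55 and 7.0 CPM in the controls (log2 fold change -0.29 ± 0.17 SE, adjusted p = 0.308, edgeR), and in inhibitory-like nuclei the log2 fold change was -0.23 ± 0.26 SE (adjusted p = 0.717, edgeR). In oligodendrocyte-like nuclei it had 2 to 9 UMIs per animal and was not tested, so these counts do not show the deletion class by class.

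In bulk cortex the summed markers of these classes were examined beside Fbxw19. The 5 oligodendrocyte markers summed to 963, 1068 and 1179 CPM in Trim28-KO animals 60, 73 and 76 and to 1280, 1338 and 1173 CPM in the controls 64, 65 and 77, and the groups overlapped. None of the 5 was called, but the mean of each was lower in the Trim28-KO. Mog did not overlap, at 43.8, 48.3 and 52.6 CPM in the Trim28-KO animals and 56.7, 59.3 and 57.2 CPM in the controls. The 6 astrocyte markers summed to 5080 to 5689 CPM in the Trim28-KO and 5080 to 5827 CPM in the controls, and none was called. Of the other marker lists, those of excitatory, inhibitory and all neurons, OPCs, microglia and progenitors had no call, and of 8 vascular and meningeal markers Col1a2 and Slc47a1 were called lower, as were 76 of all 16271 genes tested. The sums of inhibitory markers were at 709 to 793 CPM in the Trim28-KO and 801 to 857 CPM in the controls, vascular and meningeal markers at 96.0 to 123 and 137 to 144 CPM, and progenitor markers at 77.9 to 91.9 and 72.4 to 76.1 CPM. Their part in the cortical Fbxw19 values was not tested. In NPCs, OPC markers summed to 516 to 726 CPM in the Trim28-KO and to 765 and 897 CPM in the controls. In the first series, neuron markers were at 18.3, 71.2 and 58.0 CPM with guides 3, 4 and 13 and at 16.4 CPM in the control, and in the second at 62.9, 54.4 and 33.5 against 21.3 CPM. That sum was mostly Syt1, at a mean of 48.1 CPM in the Trim28-KO and 15.7 CPM in the controls, while Snap25 was at 1.02 and 2.81 CPM, Rbfox3 and Stmn2 were under 1 CPM, and none of the 4 was called. Inhibitory markers were at 29.3, 17.3 and 14.5 against 38.9 CPM in the first series and at 12.4, 12.4 and 10.2 against 22.7 CPM in the second. That sum was mostly Gad1, at a mean of 13.3 CPM in the Trim28-KO and 30.4 CPM in the controls. Gad2 (0.803 and 0.366 CPM), Pvalb (1.24 and 0.0518 CPM) and Adarb2 (0.646 and 0 CPM) were at higher means in the Trim28-KO, and Slc32a1, Sst and Vip had no reads. Of the 7 inhibitory markers 3 were tested, with a median log2 fold change of 1.15 against 0.01 over all genes tested, and Pvalb was called higher, 1 of 32 genes called in NPCs. These NPC calls, and the lack of calls among the neuron markers, come from the fit that left out the pairing of the number series. The number of calls over all genes changed with that pairing, as given in the last section. In the same libraries, progenitor markers summed to 1638 to 3692 CPM and oligodendrocyte markers to 65.3 to 165 CPM, with Mog under 1 CPM in every library. The library with guide 3 of the first series, highest for Fbxw19, was also highest for the oligodendrocyte sum (165 CPM) and the astrocyte sum (2755 CPM). Their part in the NPC values was not tested.

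The rest of the ubiquitin ligase was then examined. Of 11 SCF core and regulator genes in the table, such as Cul1, Rbx1 and Cand1, none was called in the Emx1-Cre cortex (1.33% of all genes were called in either direction), and the median log2 fold change was 0.04, against 0.01 for all genes. None of the 10 F-box WD genes elsewhere in the genome, among them Btrc, Fbxw7 and Fbxw11, was called there (median 0.03). The corepressor partners of Trim28, including Setdb1, Atf7ip and Dnmt1, gave 0 calls among 10 tested (median 0.07). In the flox nuclei (0.0409% of all genes called) these 3 lists gave no call either, and the Cas9-GFP and Stop-Cas9-GFP nuclei had none among all genes. Of 20 oocyte genes, listed because Fbxw15 is known from the oocyte, 2 passed the filter in the Emx1-Cre cortex and neither was called, and 9 were at 0 in all its libraries. All lists were compiled with earlier results of these data known.

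Across the 32 bulk libraries, the genes outside the array with the profile most like that of Fbxw19 were Gm43891 (Pearson r of log2 CPM 0.93), Gm47015 (0.92), Gm28321 (0.90), BC048671 (0.88) and Gm48619 (0.86), among 20274 candidates. Gm43891 and BC048671 are neighbours on chromosome 6, from 90296222 to 90299333 and from 90301219 to 90305449, and the others lie on chromosomes 10, 1 and 12. Gm43891 counted 151, 204 and 141 reads in the Emx1-Cre Trim28-KO animals 60, 73 and 76 and 0 in the controls. BC048671 counted 7, 6 and 3 reads in those animals and 0 in the controls. Within the array, r with Fbxw19 was 0.97 for Fbxw16, 0.96 for Gm42494 and 0.93 for Gm42493, and -0.12 for Fbxw15. The libraries fall into groups that share tissue and depth, so these are descriptions of 32 libraries and carry no p.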

How the data were processed

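Poly-A RNA was sequenced as stranded libraries (32 bulk samples), and nuclei were sequenced with droplet 3′ chemistry. The authors aligned reads with STAR 2.6.0, and the deposited counts per gene (uniquely mapped reads, GENCODE vM19) and per TE copy came from featureCounts (Subread 1.6.3, per the file headers). The deposited UMI counts of nuclei were made with Cell Ranger 3.0 on a reference of unspliced transcripts. Of the TE columns, 6 matched no sample and were not used, and the CUT&RUN samples were not used here. The Stop-Cas9-GFP counts carry the name flexcas and were matched to their samples by guide or control. No sample label uses that name. Names were taken from GENCODE for 54409 of 55298 genes, and start and end were the same in 31 of 31 genes checked.

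Counts were tested in R 4.3.3 with edgeR 4.0.16 (quasi-likelihood test, filterByExpr, TMM, Benjamini-Hochberg), separately for each experiment. Genes and copies were called where the log2 fold change was beyond 0.5 and the adjusted p under 0.05, and nuclei, summed per animal and class with at least 20 nuclei, at the adjusted p alone. The fit was also run on simulated data, and the outcome is not given here. A gene without reads in controls was compared with a floor of 3 reads per library. Intervals are exact binomial (95%, two-sided), the limit that a count of 0 allows is 3 counts of the total, and is lower than the bound of such an interval, and intervals and floors cover counting error only. Nuclei within 3 median absolute deviations of the detected genes were kept and clustered with Seurat 5.3.0, and no doublet caller was run. The first rule for naming clusters left the excitatory clusters unnamed and was replaced after this was seen. Members were matched in nuclei by gene identifier, because the feature list gives the symbol Fbxw14 to Fbxw28. Shares were also computed after thinning to 1000 UMIs. A further oligodendrocyte marker that helped to name clusters is not reported here and was left out of the marker sums after the data were seen.

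The genes named were Trim28, the members, the other Fbxw genes and flanking genes of the stretch, the 6 tested TE copies within 20 kb with the highest mean CPM, the 5 genes most alike to Fbxw19 (log2 CPM with a prior count of 2) and list members past the threshold. Loci between the members were named after their values were seen. The members and lists were chosen with earlier results of these data known. In NPCs the sample numbers form 2 series, and libraries of the same series deviated together (r from 0.533 to 0.707 in 6 pairs over 16469 genes). The series was therefore used as a block in an alternative fit. Where the labels do not say that replicates came from separate animals or cultures, p-values measure only the spread between these samples, which may be technical. DESeq2 1.42.0, other scaling factors, no filter, shared multi-mapped reads and the omission of each library were tried as alternatives.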

Additional observations from a re-analysis of the deposited data

Results flagged for a closer look

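Of 21 groups of Fbxw or Trim28 values tested for a library far from the others, 5 had one, where chance gives about 1 in 20. All 5 were groups of Fbxw genes. That rate does not apply to Fbxw13, Fbxw23 and Fbxw26, where 1 library had a few reads and the others of the group none. Fbxw16 was at 10.3 CPM in the NPC Trim28-KO library with guide 3 of the first series, far above the other 5. Fbxw13 was at 0.411 CPM in 1 flox library labelled control and at 0 in the other 3 of its group. Fbxw23 was at 1.06 CPM in the Cas9-GFP library with the mixture of guides and Fbxw26 at 0.348 CPM in the Stop-Cas9-GFP library with the mixture, each with the other 3 Trim28-KO libraries at 0. Fbxw27 was at 1.71 CPM in the Stop-Cas9-GFP library with guide 4. The Trim28 effect differed between experiments by an interaction term: the Emx1-Cre effect minus the flox effect as labelled was -3.70 on the log2 scale (adjusted p = 7.81e-09, edgeR), with Trim28 lower in the Emx1-Cre animals labelled KO and higher in the flox libraries labelled KO. Its sign and size rest on the flox labels, against which Trim28 runs, and no direction is read from it.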

How the results depend on the processing

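Fbxw19 and Fbxw16 were called higher in the Emx1-Cre cortex under all 10 alternatives each (highest adjusted p 0.000605 and 0.0012, edgeR). They were also called in astrocyte-like and oligodendrocyte-like nuclei under all 6. Neither gene had a count in these controls, and both entered the fits through the Trim28-KO alone. The repeated calls therefore support nothing further. Fbxw19 in excitatory-like nuclei lost its call without animal 60, 64 or 65 and had no adjusted p by DESeq2, and its interaction term between Emx1-Cre and flox was called by DESeq2 only (adjusted p = 0.000231). The calls over all genes varied more, and the cause was not tested. In NPCs 32 genes were called by edgeR, 150 by DESeq2 and 2 to 58 without 1 library, and with the pairing of the number series as a block 136. Cas9-GFP nuclei gave 0 calls, 25 by DESeq2, 131 without a filter, 4 with shared reads, 1 in a fit of both Cas9 lines and 0 to 7 without 1 library. Stop-Cas9-GFP nuclei gave 0, 1, 18, 1, 1 and 0 to 0 in that order. Flox nuclei gave 7, 37 by DESeq2, 19 without a filter, 11 with shared reads and 5 to 8 without 1 library. The Emx1-Cre cortex gave 216, 546 without a filter and 104 to 344 without 1 library. The interaction gave 60, 166 by DESeq2 and 30 to 109 without 1 library. The 4 called TE copies were 0 in a window of 5 kb and 4 to 6 without 1 library. In nuclei, calls by edgeR, by DESeq2 and without 1 animal were 1095, 1776 and 0 to 173 (excitatory-like), 0, 18 and 13 to 2884 (inhibitory-like), 215, 111 and 65 to 977 (astrocyte-like), 240, 92 and 94 to 683 (oligodendrocyte-like) and 13, 7 and 15 to 150 (OPC-like). Microglia-like and vascular/meningeal-like nuclei gave 0, and 0 to 61 and 4 to 19 without 1 animal. With 2 animals a group, leaving out 1 assumes that the lone animal varies like the others. The sign changed for Trim28 in Stop-Cas9-GFP nuclei (log2 fold change 0.000372 by DESeq2, 0.000401 with other scaling factors, and -0.10 to 0.0681 without 1 Trim28-KO library) and for Gm42756 in the Emx1-Cre cortex (-0.24 to 0.12 without 1 animal), neither of which was called. Of the 5 genes most alike to Fbxw19, 3 were kept by Spearman rho and 3 outside the NPCs.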
